A study of Mus musculus with 4 samples.

Results

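Changes at T:A base pairs that turned T into C or T into G were taken from the variant lists of 4 mouse tumour cell lines, each sequenced as 1 exome library. A change was counted once per line, position and new base, and its class was read on the strand that carries the pyrimidine, so that A>G counted as T>C and A>C as T>G. Of 2013 listed coding changes, 562 belonged to these classes: 334 were T>C and 228 were T>G. They lay at 522 distinct sites under 487 gene symbols.

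The line UV YUMM 1.1-9 is by its name and its table's header a derivative of YUMM 1.1 after ultraviolet light, and its list holds only changes added relative to YUMM 1.1. MB49 is a bladder carcinoma line, and YUMM 1.3 and YUMM 1.1 are melanoma lines. The table headed MB49 was assigned to the sample labelled 49XC-49 by elimination, since the other 3 headings match the other 3 labels. The labels describe Atg7 deletion by tamoxifen and subcutaneous MB49 injection in host mice, but the DNA is said to come from the cell lines, and no host genotype separates the 4 libraries. No source used here states the dose of light, the clonal origin or the passage. UV YUMM 1.1-9 gave 106 T>C and 58 T>G changes among 653, MB49 gave 101 and 95 among 707, YUMM 1.3 gave 41 and 29 among 225, and YUMM 1.1 gave 86 and 46 among 428.

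A T>C change is a transition, the exchange of a pyrimidine for a pyrimidine, and a T>G change is a transversion, the exchange of a pyrimidine for a purine. Ultraviolet light joins neighbouring pyrimidines of 1 strand, and its best known product is C>T at such pairs, with changes at T as a lesser part. A T>G change between C and T is the main peak of a catalogued mutational signature known from oesophageal and gastric tumours. Transcribed genes are repaired faster on the template strand, so that changes from bulky lesions can differ in number between the strands of a gene.

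Because each list names the codon with the changed base in capitals, sites can be read directly. The sequence shown first is the longest one around a member that could be read here, and it belongs to Olfr348, an olfactory receptor gene with a T>G change in MB49. The site is the + strand base 36786531, in the coding exon 4 bases after the start of the gene in the RefSeq promoter table, and the window is chr2:36786516-36786546 of GRCm38.p6, 5′ to 3′. The capital marks the changed base, where 17 of 34 MB49 reads carried the codon change aAg to aCg, which turns lysine into threonine (K2T).
Olfr348, MB49: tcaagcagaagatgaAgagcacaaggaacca
On the pyrimidine strand this site reads T with T after it and C before it. The codons of the other members discussed are given beside their values, with the changed base in capitals.

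The T>C class made up 16.2% of the list of UV YUMM 1.1-9, 14.3% of MB49, 18.2% of YUMM 1.3 and 20.1% of YUMM 1.1. The T>G class made up 8.88%, 13.4%, 12.9% and 10.7% of the same lists in the same order. T>C outnumbered T>G in every list, by least in MB49, where 101 stood against 95. Two-sided Fisher's exact tests were run on the counts of all 6 classes in all 6 pairs of lines, with Benjamini-Hochberg adjustment over the 36 tests, and an adjusted p under 0.05 was called. Such tests compare 1 library with 1 library and changes of a library are not independent replicates, so they say nothing about the spread between cultures, and the 95% intervals cover counting error only.

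Of the 12 tests on the 2 classes, 2 were called, against 17 of the 36 over all classes. The T>C share was lower in MB49 than in YUMM 1.1, with a difference of -5.81 percentage points (interval -10.5 to -1.32, adjusted p = 0.0315, exact test). The T>G share was lower in UV YUMM 1.1-9 than in MB49, with a difference of -4.55 percentage points (interval -7.89 to -1.20, adjusted p = 0.0252, exact test). Between UV YUMM 1.1-9 and YUMM 1.1 neither class passed the exact test: the differences were -3.86 points for T>C (interval -8.69 to 0.782, adjusted p = 0.20) and -1.87 points for T>G (interval -5.69 to 1.69, adjusted p = 0.457). The T>G difference of UV YUMM 1.1-9 from MB49 was not called in 4 alternatives. It was -2.14 points outside multigene families (adjusted p = 0.379), -0.975 points at an allele fraction of at least 20% (adjusted p = 1), -4.39 points with 5 alternative reads and 10% set as a floor for every list (adjusted p = 0.0765) and -4.46 points at 30 or more reads (adjusted p = 0.0568, exact tests). The T>C difference of MB49 from YUMM 1.1 was -5.74 points and not called (adjusted p = 0.0568, exact test) at sites with at least 30 reads.

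**Figure D1:**
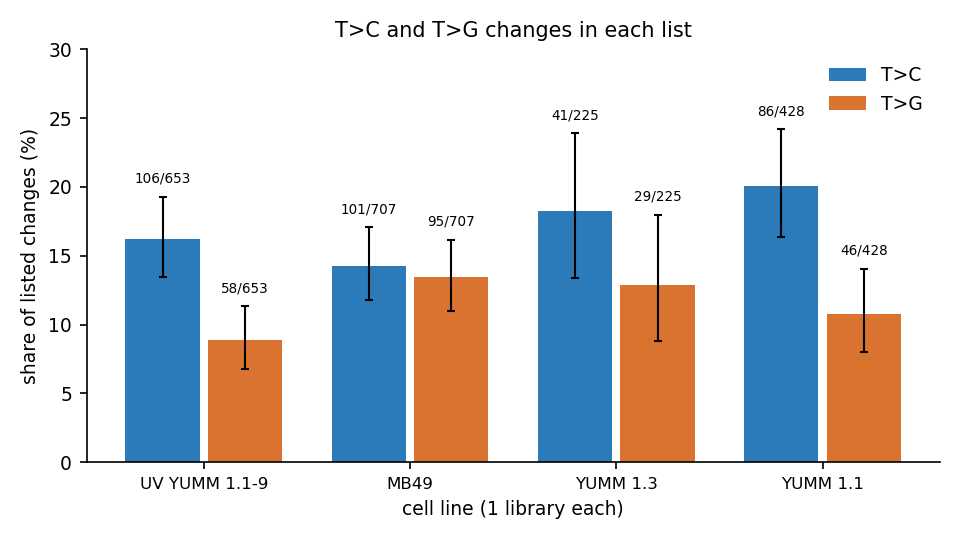
The bars give the share of T>C and T>G among all listed changes of each line in percent, with counts above them and 95% Clopper-Pearson intervals as whiskers. T>C stands above T>G in each line, and the bars are closest in MB49, at 14.3% and 13.4%.

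The base that follows the changed T set T>G apart from T>A, the third kind of change at T, in MB49. In UV YUMM 1.1-9 the order was the reverse, as given below. The base after T, read on the pyrimidine strand, was again T in 34 of 61 T>G changes of MB49 (55.7%), against 30 of 119 T>A changes (25.2%). This difference of 30.5 percentage points was called (interval 15.5 to 44.2, adjusted p = 0.00439, Fisher's exact test, adjusted over 60 class pairs within lines). Of the 12 tests on pairs of T classes within lines it was the 1 called, against 7 of the 60 over all pairs of classes. The base could be read for the changes whose neighbour lies inside the codon, which was 153 of 228 T>G and 228 of 334 T>C changes. Unchanged T of the listed codons had T after them in 330 of 1226 cases (26.9%), a level given as a description of codon composition. These T share their codons with the listed changes, at C as well as at T, so the level is not an independent background. A share above it does not by itself show a preference for T after the changed base. The levels of unchanged T given further on have the same limit.

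The T>G class had T after the changed T at a like level in the lists: 20 of 38 in UV YUMM 1.1-9 (52.6%), 34 of 61 in MB49, 12 of 20 in YUMM 1.3 (60.0%) and 21 of 34 in YUMM 1.1 (61.8%). Each of the 4 shares lay above the level of unchanged T, and none of the intervals included it, which is a description and not a test. For T>C the shares were 41 of 77 in UV YUMM 1.1-9 (53.2%), 22 of 68 in MB49 (32.4%), 6 of 27 in YUMM 1.3 (22.2%) and 21 of 56 in YUMM 1.1 (37.5%). Here the interval of UV YUMM 1.1-9, 41.5% to 64.7%, lay above that level, while the intervals of the other 3 lists included it. For T>A the shares were 44 of 74 in UV YUMM 1.1-9 (59.5%), 30 of 119 in MB49, 11 of 22 in YUMM 1.3 and 11 of 31 in YUMM 1.1 (35.5%). The T>A share thus stood above that of T>G in UV YUMM 1.1-9 and below it in the other lists. The T>A intervals of UV YUMM 1.1-9 (47.4% to 70.7%) and YUMM 1.3 (28.2% to 71.8%) lay above the level of unchanged T. Those of MB49 (17.7% to 34.0%) and YUMM 1.1 (19.2% to 54.6%) included it. T>C minus T>G was 0.615 points in UV YUMM 1.1-9 (adjusted p = 1), -23.4 points in MB49 (adjusted p = 0.0538), -37.8 points in YUMM 1.3 (adjusted p = 0.0717) and -24.3 points in YUMM 1.1 (adjusted p = 0.115, Fisher's exact tests). None of the 4 was called, and the sign in UV YUMM 1.1-9 turned without multigene families (-0.953 points). The interval in UV YUMM 1.1-9 ran from -17.9 to 19.4 points. At sites found in no other list the difference in YUMM 1.3 was -23.3 points (adjusted p = 0.496, exact test).

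Between lines, none of 12 tests on the base after T was called by Fisher's exact test, and 2 were at an unadjusted p under 0.05. T>C in UV YUMM 1.1-9 exceeded MB49 by 20.9 points (interval 4.74 to 35.5, adjusted p = 0.112), YUMM 1.3 by 31.0 points (interval 9.46 to 46.8, adjusted p = 0.0810) and YUMM 1.1 by 15.7 points (interval -1.38 to 31.5, adjusted p = 0.323, exact tests). With a floor of 5 alternative reads and 10% set for every list, which removed only UV YUMM 1.1-9 sites, the first of these was 30.9 points (adjusted p = 0.0157) and the second 41.0 points (adjusted p = 0.0138), both called by the exact test, and the last 25.8 points (adjusted p = 0.0797). At sites found in no other list the excess over YUMM 1.3 was 7.79 points and that over YUMM 1.1 was 5.63 points (adjusted p = 1 and 0.894, exact tests), and outside multigene families the excess over YUMM 1.3 was 17.4 points (adjusted p = 0.794). At an allele fraction of at least 20% the excess over YUMM 1.1 was 8.97 points (adjusted p = 0.953, exact test). For T>G, UV YUMM 1.1-9 minus YUMM 1.1 was -9.13 points (interval -30.2 to 13.3, adjusted p = 0.754, exact test).

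A pyrimidine stood before the changed T in 46 of 67 T>C changes of UV YUMM 1.1-9 (68.7%), 38 of 76 of MB49 (50%), 15 of 30 of YUMM 1.3 (50%) and 31 of 61 of YUMM 1.1 (50.8%). Among unchanged T it was 812 of 1412 (57.5%), so UV YUMM 1.1-9 lay above that level, with an interval of 56.2% to 79.4% that still included it, and the other lists lay below it. The excess of UV YUMM 1.1-9 was 17.8 points over YUMM 1.1 (interval 0.879 to 33.5, adjusted p = 0.156) and 18.7 points over MB49 (interval 2.50 to 33.4, adjusted p = 0.0995), and Fisher's exact test called neither. When every list was held to 5 alternative reads and a 10% fraction, they were 2.67 and 3.49 points (adjusted p = 1 for both, exact tests). For T>G the order of the lists was another one: 26 of 45 in UV YUMM 1.1-9 (57.8%), 36 of 71 in MB49 (50.7%), 11 of 17 in YUMM 1.3 (64.7%) and 19 of 27 in YUMM 1.1 (70.4%). None of the 12 tests between lines was called, and 2 were at an unadjusted p under 0.05. Over all classes 8 of the 36 were called.

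Both neighbours are known where the changed base is the middle one of its codon. There, C before and T after made up 22 of 85 T>G changes (25.9%, interval 17.0% to 36.5%) and 19 of 128 T>C changes (14.8%, interval 9.18% to 22.2%). These pooled counts take a site once per list, so a site in more than 1 list, such as H2-Q6 K52T, counts more than once. The intervals do not allow for this. In all, the 228 T>G changes lay at 216 distinct sites and the 334 T>C changes at 306. By line, the T>G counts were 5 of 25 in UV YUMM 1.1-9, 8 of 37 in MB49, 3 of 8 in YUMM 1.3 and 6 of 15 in YUMM 1.1. For T>C they were 7 of 38 in UV YUMM 1.1-9, 6 of 43 in MB49, 1 of 16 in YUMM 1.3 and 5 of 31 in YUMM 1.1. Pooled over the 4 lists C-T-T had the highest count in both classes, but for T>C other triplets equalled it in UV YUMM 1.1-9 and YUMM 1.1 and exceeded it in MB49 and YUMM 1.3. At least 1 pyrimidine neighbour was present in 113 of 128 T>C and 73 of 85 T>G changes, so this measure leaves little room for a difference between lines.

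**Figure D2:**
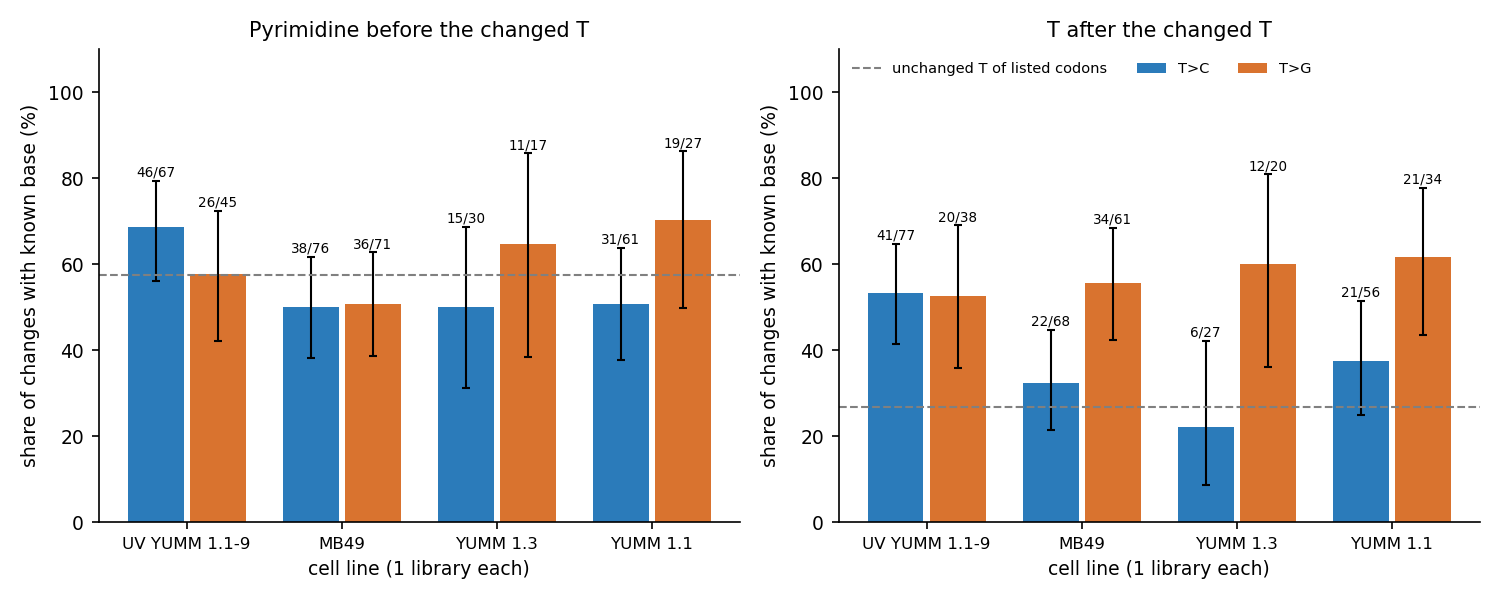
The bars give the share of T>C and T>G changes of each line with a pyrimidine before T (left) and with T after T (right), in percent of changes whose neighbour lies in the same codon, with 95% Clopper-Pearson intervals. The dashed lines are the shares among unchanged T of the listed codons, 57.5% and 26.9%. They describe codon composition and are not an independent background. In the right panel the T>G bars stand well above the dashed line in each line while the T>C bar does so in UV YUMM 1.1-9.

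On the coding strand lay the T of 65 of 106 T>C changes of UV YUMM 1.1-9 (61.3%), 43 of 101 of MB49 (42.6%), 16 of 41 of YUMM 1.3 (39.0%) and 44 of 86 of YUMM 1.1 (51.2%). For T>G the counts were 34 of 58 in UV YUMM 1.1-9 (58.6%), 37 of 95 in MB49 (38.9%), 20 of 29 in YUMM 1.3 (69.0%) and 21 of 46 in YUMM 1.1 (45.7%). UV YUMM 1.1-9 had more changed T on the coding strand than on the template strand in both classes, and MB49 had fewer in both. T>A lay the same way, with 65 of 114 on the coding strand in UV YUMM 1.1-9 (57.0%) and 62 of 173 in MB49 (35.8%). Among unchanged T of the listed codons the share was 48.3% (911 of 1887). Of the 36 tests between lines over all classes, Fisher's exact test called 1. It was T>A in UV YUMM 1.1-9 minus MB49, at 21.2 points (interval 9.41 to 32.2, adjusted p = 0.0160, exact test). None of the 12 differences between lines for T>C and T>G was called, and 4 of these 12 were at an unadjusted p under 0.05.

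The widest of these was T>G in MB49 minus YUMM 1.3, at -30.0 points (interval -46.6 to -9.23, adjusted p = 0.0991, exact test). For UV YUMM 1.1-9 minus MB49 the difference was 18.7 points for T>C (interval 5.13 to 31.4, adjusted p = 0.0991) and 19.7 points for T>G (interval 3.38 to 34.6, adjusted p = 0.145, exact tests). Against its parent YUMM 1.1 it was 10.2 points for T>C (interval -3.85 to 23.7, adjusted p = 0.520) and 13.0 points for T>G (interval -6.14 to 30.9, adjusted p = 0.594, exact tests). In YUMM 1.3 the classes lay on opposite sides, with T>C minus T>G at -29.9 points (interval -49.1 to -6.20, adjusted p = 0.364, exact test). The expression of the genes, on which repair of the template strand depends, was not measured in these files.

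**Figure D3:**
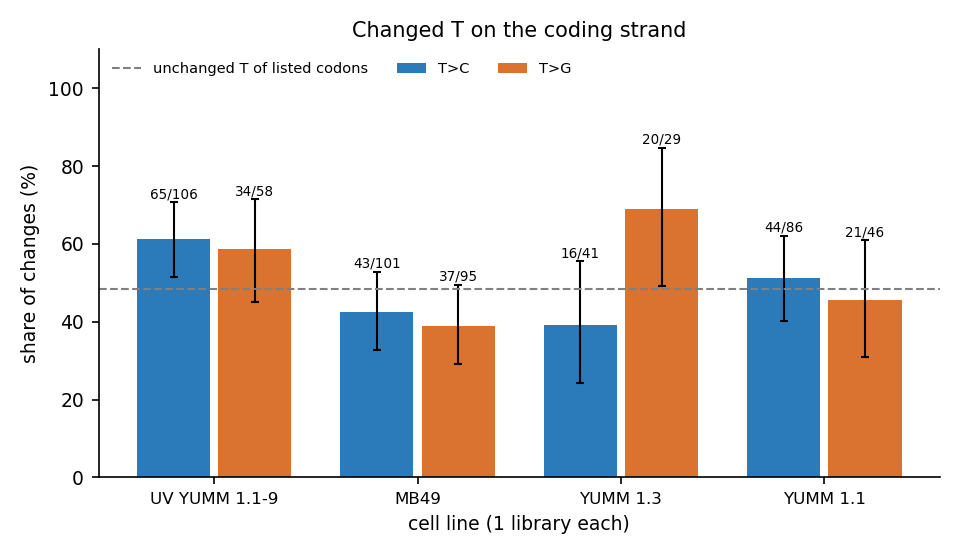
The bars give the share of T>C and T>G changes of each line whose T is on the coding strand, in percent, with 95% Clopper-Pearson intervals. The dashed line marks 48.3%, the share among unchanged T of the listed codons: both bars of UV YUMM 1.1-9 stand above it and both bars of MB49 below it.

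In each list a larger share of T>G than of T>C changes altered the protein, and the difference was called in MB49 and YUMM 1.1. Of T>C changes, 71 of 106 in UV YUMM 1.1-9 (67.0%), 68 of 101 in MB49 (67.3%), 27 of 41 in YUMM 1.3 (65.9%) and 43 of 86 in YUMM 1.1 (50%) altered the protein. Of T>G changes, 49 of 58 in UV YUMM 1.1-9 (84.5%), 85 of 95 in MB49 (89.5%), 25 of 29 in YUMM 1.3 (86.2%) and 40 of 46 in YUMM 1.1 (87.0%) did so. T>C minus T>G was called in MB49 (-22.1 points, interval -32.9 to -10.7, adjusted p = 0.00232) and in YUMM 1.1 (-37.0 points, interval -49.4 to -20.6, adjusted p = 0.000295, Fisher's exact test). It was not called in UV YUMM 1.1-9 (-17.5 points, interval -29.3 to -3.43, adjusted p = 0.0597) or in YUMM 1.3 (-20.4 points, interval -37.8 to 0.612, adjusted p = 0.209, exact tests). In YUMM 1.1, T>C minus T>A was -24.5 points (interval -39.0 to -7.08, adjusted p = 0.0440, exact test), and it was not called without multigene families (-18.7 points, adjusted p = 0.385), at sites found in no other list (-23.9 points, adjusted p = 0.146) or with the common floor (adjusted p = 0.0572). The MB49 call was lost without multigene families, at -19.0 points (adjusted p = 0.0865, exact test). Of the 12 tests on pairs of T classes within lines 3 were called, against 13 of the 60 over all pairs of classes.

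As background, a transition at codon position 3 nearly always leaves the amino acid as it was. The part of codon position in the difference between the classes was not tested. All 115 T>C changes at codon position 3 were silent, against 28 of 68 T>G changes there. At codon position 2 none of 128 T>C and none of 85 T>G changes was silent, which the genetic code fixes for amino acid codons. Codon position 3 held 29 of 106 T>C changes in UV YUMM 1.1-9 (27.4%), 32 of 101 in MB49 (31.7%), 13 of 41 in YUMM 1.3 (31.7%) and 41 of 86 in YUMM 1.1 (47.7%). The protein-changing share of T>C in UV YUMM 1.1-9 was 17.0 points above YUMM 1.1 (interval 3.0 to 30.2) and that of MB49 was 17.3 points above it (interval 3.19 to 30.6), each with an adjusted p of 0.226 by Fisher's exact test.

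**Figure D4:**
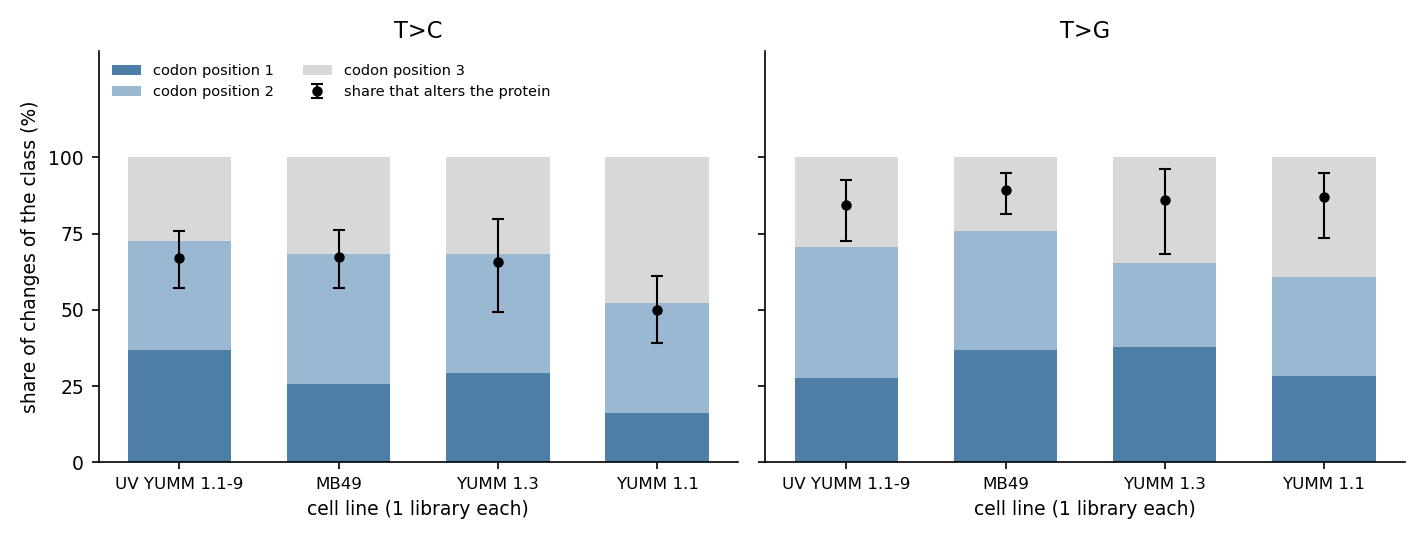
The stacked bars give the share of T>C (left) and T>G (right) changes of each line at codon positions 1, 2 and 3, in percent, and the points give the share that altered the protein with 95% Clopper-Pearson intervals. The points of T>C stop near the top of codon position 2, while those of T>G lie between 84.5% and 89.5%, well inside codon position 3.

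The classes made different amino acid exchanges. Counts over the 4 lists take a site once per list, so sites in more than 1 list count more than once. Among 208 missense T>C changes the most frequent were leucine to proline with 28 (11 in UV YUMM 1.1-9, 9 in MB49, 3 in YUMM 1.3, 5 in YUMM 1.1), lysine to arginine with 21 (5, 8, 1 and 7), phenylalanine to leucine with 14 (7, 6, 1 and 0) and aspartate to glycine with 13. Among 194 missense T>G changes they were lysine to threonine with 21 (3 in UV YUMM 1.1-9, 9 in MB49, 3 in YUMM 1.3, 6 in YUMM 1.1), phenylalanine to valine with 15 (2, 4, 4 and 5), serine to arginine with 15 (1, 12, 0 and 2), leucine to valine with 11 and asparagine to threonine with 11. Proline, which breaks helices, was gained in 36 of 208 T>C (17.3%) and 12 of 194 T>G missense changes (6.19%). The side chain charge changed in 60 of 208 T>C (28.8%) and 82 of 194 T>G missense changes (42.3%). A proline was removed by 0 of 208 T>C and 0 of 194 T>G missense changes, an outcome that the genetic code fixes for both classes.

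Several of these exchanges carry the neighbour described above within the codon itself. Lysine to threonine (aAg to aCg or aAa to aCa), asparagine to threonine, phenylalanine to valine (Ttc to Gtc or Ttt to Gtt) and leucine to valine had T after the changed T in all 58 cases, out of 87 T>G changes with that neighbour. In T>C the same held for lysine to arginine and phenylalanine to leucine, in all 35 cases out of 90. For these exchanges the neighbour and the amino acid are the same sites seen in 2 ways.

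Phenylalanine was lost in 16 of 71 T>C missense changes of UV YUMM 1.1-9 (22.5%, interval 13.5% to 34.0%), 6 of 67 in MB49 (8.96%), 2 of 27 in YUMM 1.3 (7.41%) and 1 of 43 in YUMM 1.1 (2.33%, interval 0.0589% to 12.3%). This contrast was read from the table of exchanges after its values were seen, so it has no test. Phenylalanine to serine (tTc to tCc or tTt to tCt) made up 9 of the 16. It was listed in Galnt4 (F225S, 6 of 101 reads), a sugar transferase of O-linked glycans, in Sarm1 (F476S, 6 of 42 reads), an NAD-cleaving driver of axon degeneration, and in Papola (F161S, 4 of 87 reads), a poly(A) polymerase. The rest were Aldh5a1 F428S, Dsg2 F104S, Trpm7 F1686S, Lama5 F1690S, Dpy19l2 F758S and Fdxacb1 F524S, with allele fractions from 11.4% to 16.4%, and these 9 were named after their values were seen. YUMM 1.1 had no such read at any of the 9. The same held at 585 of all 653 sites of the list, which were chosen for this contrast, so it marks nothing particular to the 9. Fisher's exact test on the reads of both lines, adjusted over all sites of the list, called 64.0% of them. The exact test did not call Papola (adjusted p = 0.135), Aldh5a1 (0.273), Lama5 (0.127) or Dpy19l2 (0.0753). At Aldh5a1 it set 3 of 25 reads against 0 of 16.

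Among missense changes with a SIFT class, a prediction from sequence conservation that the files hold, T>C was called deleterious in 41 of 67 in UV YUMM 1.1-9 (61.2%), 24 of 56 in MB49 (42.9%), 5 of 18 in YUMM 1.3 (27.8%) and 12 of 34 in YUMM 1.1 (35.3%). For T>G it was 30 of 46 in UV YUMM 1.1-9 (65.2%), 46 of 72 in MB49 (63.9%), 8 of 17 in YUMM 1.3 (47.1%) and 16 of 37 in YUMM 1.1 (43.2%). In both classes, deleterious calls of low confidence were counted as deleterious. UV YUMM 1.1-9 had the highest share in both classes, but no difference between lines was called by Fisher's exact test, and 4 of 12 were at an unadjusted p under 0.05. T>C in UV YUMM 1.1-9 exceeded YUMM 1.1 by 25.9 points (interval 5.28 to 43.4, adjusted p = 0.301, exact test).

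The allele fraction, the percent of reads at a site with the new base, set the lines apart more than the classes. For T>C the median was 13.5% in UV YUMM 1.1-9 (quartiles 10.5% to 16.3%), 44.6% in MB49 (27.5% to 53.1%), 16.7% in YUMM 1.3 (12.6% to 29.1%) and 23.6% in YUMM 1.1 (18.4% to 33.1%). For T>G it was 14.0% in UV YUMM 1.1-9 (10% to 17.5%), 48.0% in MB49 (38.3% to 55.0%), 21.4% in YUMM 1.3 (13.1% to 48.1%) and 31.1% in YUMM 1.1 (24.0% to 38.6%). Below 20% lay 92 of 106 T>C and 46 of 58 T>G sites of UV YUMM 1.1-9, and at 40% or above lay 61 of 101 T>C and 65 of 95 T>G sites of MB49. Median depth was 45.5 reads for T>C and 46 for T>G in UV YUMM 1.1-9, 65 and 67 in MB49, 115 and 82 in YUMM 1.3, and 71.5 and 73 in YUMM 1.1.

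A fraction of at least 20% was reached by 14 of 106 T>C and 12 of 58 T>G changes in UV YUMM 1.1-9, 87 of 101 and 91 of 95 in MB49, 13 of 41 and 16 of 29 in YUMM 1.3, and 60 of 86 and 37 of 46 in YUMM 1.1. All 12 tests between lines on this measure were called by Fisher's exact test, as were 30 of the 36 over all classes. The lists differ in their lowest entry, however: the members of the UV YUMM 1.1-9 list go down to 3 alternative reads and 4.19%, and those of the other lists stop at 5 reads and 10%. Within lines, T>G had the higher share in each list, but none of the 12 tests on pairs of T classes was called, and 5 were at an unadjusted p under 0.05. T>C minus T>G in MB49 was -9.65 points (interval -18.1 to -1.47, adjusted p = 0.166, exact test). It was -4.39 points at sites found in no other list (adjusted p = 0.799) and -1.37 points outside multigene families (adjusted p = 1, exact tests). In YUMM 1.1, T>G exceeded T>A by 29.4 points (interval 10.1 to 45.8, adjusted p = 0.0812, exact test).

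**Figure D5:**
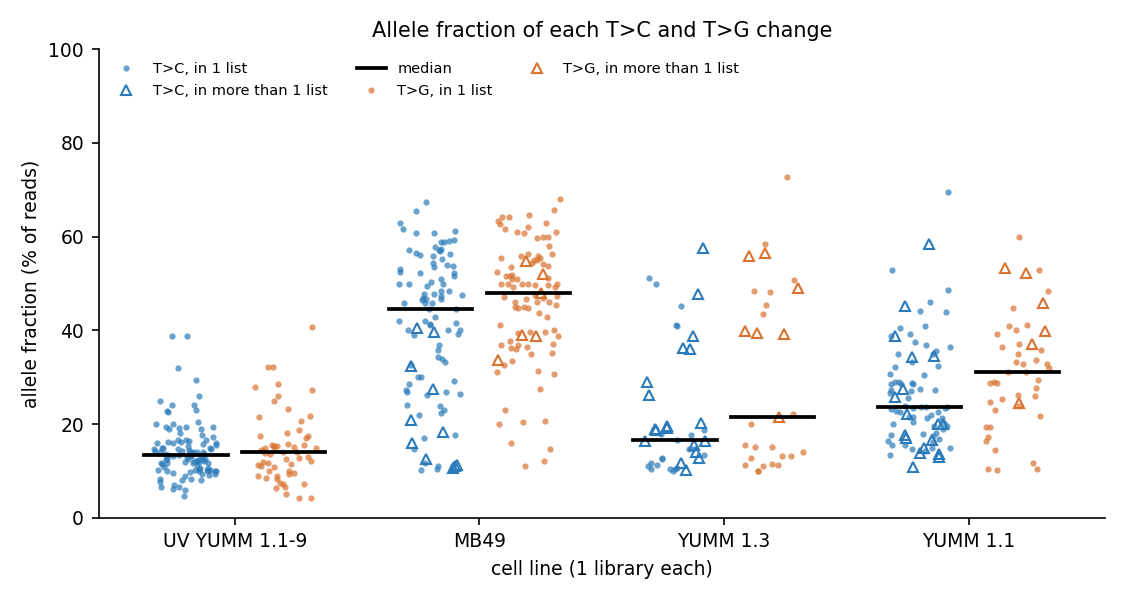
Each point is 1 T>C or T>G change, with its allele fraction in percent of reads on the vertical axis, the line on the horizontal axis and bars at the medians; open triangles are changes that stand in more than 1 list. UV YUMM 1.1-9 lies low with medians of 13.5% and 14.0%, MB49 lies high with 44.6% and 48.0%, and the T>C triangles of MB49 lie in the lower part of its range.

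The UV YUMM 1.1-9 table also gives the reads of YUMM 1.1 at each added site. At the 106 T>C sites, 828 of 6060 reads of UV YUMM 1.1-9 carried C (13.7%, interval 12.8% to 14.6%), against 7 of 6846 reads of YUMM 1.1 (0.102%, interval 0.0411% to 0.211%). At the 58 T>G sites, 406 of 3106 reads of UV YUMM 1.1-9 carried G (13.1%), against 6 of 3717 reads of YUMM 1.1 (0.161%). The YUMM 1.1 reads came as single reads at 7 T>C and 6 T>G sites, and no site had more than 1. At T>A sites YUMM 1.1 had 29 of 6234 such reads (0.465%). Over all classes, 585 of the 653 sites had no such read in YUMM 1.1 and 68 had 1. The sites were listed as added relative to YUMM 1.1, so its low shares follow from that choice. They are a description and not a result about these classes.

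Site by site, with adjustment over all 653 sites of the list, 73 of 106 T>C sites (68.9%) and 37 of 58 T>G sites (63.8%) passed Fisher's exact test, against 64.0% of all sites. Since the table's makers chose these sites for this contrast, the counts say only how many sites had the reads to pass. At a site where YUMM 1.1 had no such read, its median depth of 52 reads at T>C and 51.5 at T>G sites allowed a fraction of up to 5.77% and 5.83%.

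Of the members with the highest fraction in each list, 3 per class were named among protein-changing sites with at least 20 reads outside the families told by symbol, as listed further on. In UV YUMM 1.1-9 the T>C sites were Atp5l F30L (Ttt to Ctt, 35 of 90 reads, 38.9%), a subunit of mitochondrial ATP synthase, Grik5 Y525H (6 of 23), a kainate receptor subunit, and Iars F706L (7 of 28), the isoleucine tRNA synthetase. YUMM 1.1 had 1 of 75 reads at the Atp5l site and none of 23 and 37 reads at the other two. The T>G sites were Lipe K34T (aAg to aCg, 11 of 27, 40.7%), hormone-sensitive lipase, Hrh4 L57V (10 of 31), a histamine receptor, and Fryl I2007R (9 of 28). YUMM 1.1 had 1 of 55 reads at the Lipe site and none of 37 and 36 reads at the other two. Each of these intervals is wide: that of Lipe runs from 22.4% to 61.2%.

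In MB49 the T>C sites were Mgat5 D706G (17 of 26 reads, 65.4%), an enzyme that branches N-glycans, Plxnb2 K1449R (34 of 54), a semaphorin receptor, and Crygb F174L (32 of 52), a lens crystallin. Its T>G sites were Dcc N867T (17 of 25, 68.0%), a netrin receptor, Dmkn K522T (25 of 38) and Bmper L554R (cTt to cGt, 36 of 56), a binder of bone morphogenetic proteins. In YUMM 1.3 the T>C sites were Gemin4 T1010A (74 of 164, 45.1%), part of the complex that assembles spliceosomal particles, Ap4m1 I341V (27 of 66) and Pcdhb7 L523P (43 of 227). Pcdhb7 is a clustered protocadherin, a family that the symbol rule did not cover, and its site also stood in the YUMM 1.1 list. The T>G sites of YUMM 1.3 were Dock9 S349A (Tcc to Gcc, 40 of 55, 72.7%), an activator of Cdc42, Tmed6 F68V (14 of 24) and Atp8b3 K292T (37 of 73). In YUMM 1.1 the T>C sites were Tspan8 M12T (26 of 59, 44.1%), a tetraspanin, Nlgn2 N136D (16 of 39), a synaptic adhesion protein, and Gpat2 L300P (11 of 28). Its T>G sites were Setdb2 F204V (Ttt to Gtt, 39 of 65, 60.0%), a histone methyltransferase, Peg3 K570N (18 of 34) and Glra3 E240D (32 of 66), a glycine receptor subunit.

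Few members changed a start or a stop. T>G made a stop codon in Tlr1 of UV YUMM 1.1-9 (L429*, tTa to tGa, 5 of 52 reads, 0 of 69 in YUMM 1.1), a receptor for bacterial lipopeptides, and in Stpg4 of the same line (Y171*, taT to taG, 3 of 41 reads, 0 of 51 in YUMM 1.1). In MB49 a T>G change removed the stop of Irf2bp2 (*571C, tgA to tgC, 26 of 55 reads), a transcriptional corepressor, and a T>C change removed the start of Csn1s2a (M1V, Atg to Gtg, 37 of 83 reads), a casein. The stop in C130026I21Rik (Y293*, taT to taG) stood in 2 lists, with 417 of 761 reads in MB49 (54.8%) and 526 of 932 in YUMM 1.3 (56.4%). Depths of this size stand far above the medians of 67 and 82 reads for T>G in those lists.

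Lists of known genes were searched next. Of 50 DNA repair and polymerase genes 1 had a protein-changing member, against 2 with a protein-changing entry of any class: Rev3l, the catalytic subunit of the translesion polymerase zeta, with T>G F708V in YUMM 1.3 (13 of 130 reads, 10%). Of 40 genes of melanoma and bladder cancer 1 had one, against 6 with an entry of any class: Erbb3, a receptor of the EGF receptor family, with T>C E926G in MB49 (gAg to gGg, 24 of 42 reads, 57.1%). None of 30 autophagy genes held a member or a protein-changing entry of any class. Of 20 genes of antigen presentation and interferon signalling 1 held a member, the silent T>G change T448 of Nlrc5 in YUMM 1.1 (5 of 23 reads), and none had a protein-changing entry of any class.

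Genes of large families, whose reads can be assigned to a wrong copy, were told by symbol: olfactory and vomeronasal receptors, zinc finger, mucin, cytochrome P450, major histocompatibility and a few other families, and predicted genes named Gm, LOC or Rik. They held 10 of 106 T>C and 7 of 58 T>G changes in UV YUMM 1.1-9, 37 of 101 and 38 of 95 in MB49, 21 of 41 and 12 of 29 in YUMM 1.3, and 29 of 86 and 10 of 46 in YUMM 1.1. Over all classes the families held 15.5% of the list of UV YUMM 1.1-9, 29.1% of MB49, 48.4% of YUMM 1.3 and 32.9% of YUMM 1.1. In MB49, 13 of the 38 T>G changes were in olfactory receptor genes, against 7 of the 37 T>C changes. The 13 had allele fractions from 20% (Olfr141 I253S, 13 of 65 reads) to 54.2% (Olfr1277 L213R, 26 of 48 reads). Family members had more reads: the median depth was 144 in T>G sites of MB49 within families and 52 outside, with median allele fractions of 46.5% and 51.2%.

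Sites in more than 1 list lay mostly in such families. No UV YUMM 1.1-9 member was in another list, and for the YUMM 1.1 list this follows from how the table of added changes was made. Over all classes 0 of the 653 changes of UV YUMM 1.1-9 were in another list. MB49 shared 11 T>C and 6 T>G sites with another list, YUMM 1.3 shared 19 and 7, and YUMM 1.1 shared 18 and 6. Over all classes MB49 shared 72 of 707, YUMM 1.3 105 of 225 and YUMM 1.1 108 of 428. Between lines, 8 of the 12 tests on this measure were called by Fisher's exact test, against 25 of the 36 over all classes. YUMM 1.3 and YUMM 1.1 had 17 T>C sites in common, 41.5% of the T>C sites of YUMM 1.3 and 19.8% of those of YUMM 1.1. In YUMM 1.1 the shared part of T>G minus that of T>A was -25.3 points (interval -41.1 to -7.48, adjusted p = 0.107, exact test). None of 12 such tests within lines was called by Fisher's exact test, with 3 at an unadjusted p under 0.05. Over all pairs of classes 3 of the 60 were called.

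In all 3 single-line lists stood 8 T>C and 5 T>G sites, of which 7 and 5 were in families. At several of these sites the 3 lines had close fractions. Gm13212 E161A (gAg to gCg) was carried by 34 of 87 reads in MB49 (39.1%), 73 of 186 in YUMM 1.3 (39.2%) and 72 of 181 in YUMM 1.1 (39.8%). Gm10354 D29G (gAc to gGc) was carried by 201 of 496 reads in MB49 (40.5%), 221 of 570 in YUMM 1.3 (38.8%) and 252 of 648 in YUMM 1.1 (38.9%). H2-Q6 K52T, in a class I histocompatibility gene, was carried by 116 of 223 reads in MB49 (52.0%), 127 of 259 in YUMM 1.3 (49.0%) and 113 of 216 in YUMM 1.1 (52.3%). The exception outside families was Eri1 C222, a silent change in an exonuclease of histone mRNA, with 69 of 213 reads in MB49 (32.4%), 89 of 247 in YUMM 1.3 (36.0%) and 60 of 219 in YUMM 1.1 (27.4%). Over the 13 sites the range between the 3 lines had a median of 6.48 points for T>C and 6.18 points for T>G, and the widest was 18.9 points, at Gm13154 Q174R. Shared sites were lower in some lists and higher in others. The shared T>C sites had a median fraction of 18.3% in MB49 (n = 11), against 46.5% at sites in no other list (n = 90). It was 19.2% (n = 19) against 14.0% (n = 22) in YUMM 1.3, and 20% (n = 18) against 23.8% (n = 68) in YUMM 1.1. For T>G the medians were 43.5% (n = 6) against 49.3% (n = 89) in MB49, 40% (n = 7) against 15.2% (n = 22) in YUMM 1.3, and 42.8% (n = 6) against 29.3% (n = 40) in YUMM 1.1.

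Some members stood within 2 bases of another listed change of their line. There were 11 such pairs in UV YUMM 1.1-9, 5 in MB49, none in YUMM 1.3 and 1 in YUMM 1.1. In 8 of the 11 pairs of UV YUMM 1.1-9 both changes had the same alternative and total read counts, and 6 pairs lay in 1 codon. In Ffar4, a receptor for long-chain fatty acids, T>G at L86V (Ttg to Gtg) and T>C at L86S (tTg to tCg) each had 3 of 30 reads, so that the predicted exchanges hold only if different reads carry them. Olfr492 paired T>C S242P (Tcc to Ccc) with a silent C>T change of the base before it, each with 29 of 182 reads. In 5 of the 11 pairs the partner was C>T. In MB49 the pair in Cd163 had 35 of 152 reads at both sites, and the Sult2a6 pair (I239V and Q238R, both T>C) had 42 and 41 of 156 reads. The pair of YUMM 1.1 was Kif14, a mitotic kinesin, with 17 of 80 reads at D1377 and 16 of 74 at I1378T. The members Cabp2 L182P, Gfap L427P and Hnmt K276, each from a pair with equal reads, belong to 11 UV YUMM 1.1-9 members whose base columns go with a partner row of the table, so that their read counts may be the partner's.

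Genes with more than 1 member of a class in a line numbered 10. Vmn2r32, a vomeronasal receptor, had 3 T>C changes in YUMM 1.1, with 9 of 38 reads at N776, 9 of 31 at D773 and 6 of 13 at K648R. Neb, which encodes the giant muscle protein nebulin, had T>C at L5075 (14 of 58 reads) and N3476S (12 of 86) in UV YUMM 1.1-9, against 0 of 52 and 0 of 128 reads in YUMM 1.1. Calu, a calcium-binding protein of the endoplasmic reticulum, had T>G at L93R (6 of 51) and I80L (5 of 45) in UV YUMM 1.1-9, against 0 of 64 and 0 of 55 reads in YUMM 1.1. Itga6, a laminin receptor subunit, had T>C at N101S (13 of 80) and K613R (8 of 56) in YUMM 1.1. The 2 sites of Neb and the 2 of Itga6 lie far apart, while Pcdhb7 L523P and H525 are neighbours and stood together in both YUMM lists, with 43 of 227 and 27 of 211 reads in YUMM 1.3 and 60 of 270 and 52 of 261 in YUMM 1.1.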

How the data were processed

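The authors deposited 1 table of coding single-base changes per line. Per the file headers, a row gives the position, the codon and amino acid exchange, a SIFT class and the counts of reads for either base, as whole numbers without normalization. Exome capture used the Agilent SureSelect kit for mouse, with paired 151-base reads and 80X named as the mean depth, per the labels' protocols. FastQC, BWA 0.7.5a, GATK, Picard, SAMtools and the build mm10 appear in the submitters' processing notes without roles. No caller or filter is named in the sources used here.

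The 2019 rows held 6 repeats, removed here. The neighbours were read within the codon, since no genome was used. Counts were compared with two-sided Fisher's exact tests (SciPy 1.17.1, tested on simulated data), adjusted by Benjamini-Hochberg per measure over 36 tests between lines or 60 within lines. Intervals of shares are Clopper-Pearson, those of differences Newcombe, at 95%. Each line has 1 library, so no spread between replicates could be had. Of 487 symbols, 467 matched RefSeq GRCm38.p6. The classes and gene lists were chosen with earlier results of these data known. Members were named by rule: the highest allele fractions per line and class, start and stop changes, members of gene lists, sites in all 3 single-line lists, genes with more than 1 member, and changes within 2 bases of another.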

Additional observations from a re-analysis of the deposited data

How the results depend on the processing

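The 7 alternatives run were an allele fraction of at least 20%, a common floor of 5 alternative reads and 10%, sites in no other list, genes outside families, at least 30 reads, no other change within 2 bases, and no UV YUMM 1.1-9 rows with misplaced bases. Of 33 tested differences, 24 kept their direction and their side of the threshold in each alternative that gave a value. The T>G share in UV YUMM 1.1-9 minus MB49 was no longer called at an allele fraction of at least 20% (-0.975 points), with the common floor (-4.39), outside families (-2.14) and at 30 reads (-4.46). The T>C share in MB49 minus YUMM 1.1 was no longer called at 30 reads (-5.74). The T>G share in UV YUMM 1.1-9 minus YUMM 1.1 turned to 0.0240 points at 20%, and T after T in UV YUMM 1.1-9, T>C minus T>G, turned to -0.953 points outside families; neither was called in any setting. In MB49 that difference was -23.4 points and called without misplaced rows, which touch only the adjustment over tests, not the MB49 counts. The MB49 protein-changing difference lost its call outside families (-19.0 points). In YUMM 1.1, T>C minus T>A in protein-changing share lost its call with the common floor, at sites in no other list and outside families. The cause of these losses was not tested. Median allele fractions moved at 20% to 24.1% (T>C) and 26.6% (T>G) in UV YUMM 1.1-9, 40.9% and 46.7% in YUMM 1.3, and 28.6% for T>C in YUMM 1.1; with the common floor to 14.5% and 15.5% in UV YUMM 1.1-9; and outside families to 51.2% for T>G in MB49. These moves follow from which sites each setting keeps. The calls on class shares numbered 2 of 12, and 1 at 20%, with the common floor and outside families, and 0 at 30 reads. Calls on T after T between lines numbered 0, and 2 with the common floor; within lines they numbered 1, and 2 without misplaced rows. Calls on protein-changing shares within lines numbered 3, and 1 outside families. Neighbours read from a genome were planned and not run. No paired analysis was possible because each line has 1 library. At the median depth of 46 reads in UV YUMM 1.1-9, a single site's fraction is known only within wide counting limits.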
